A study of Mus musculus with 22 samples.

Results

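The comparison set 3 whole bladders of mice with the R270H mutation of Trp53, switched on in Krt5-expressing basal cells, against 4 with the R172H mutation, switched on the same way. The 7 arrays were chosen by their genotype labels from the 22 mouse bladder arrays of the study. The R270H mice were Krt5-CreERT2; LSL-RFP; Trp53R270H/+ and the R172H mice Krt5-CreERT2; LSL-RFP; Trp53R172H/+, so that both kept 1 other Trp53 allele and both carried a red reporter behind a stop cassette. All 7 received tamoxifen, which activates the recombinase, and then N-butyl-N-(4-hydroxybutyl)nitrosamine (BBN), a bladder carcinogen, in drinking water for 24 weeks, and were taken at 8 months of age. The groups used beside them were Upk2-CreERT2 mice with R270H (2 arrays) or R172H (3 arrays), in which the recombinase is made in luminal cells, and Krt5-CreERT2; LSL-RFP mice with no mutant allele (2 arrays), all with tamoxifen and BBN. The RNA came from the whole bladder, although the tissue label reads bladder tumor, so muscle, nerve, vessel, immune and epithelial RNA were read together. No label says that the arrays of a group came from separate animals, so the p-values measure a spread between samples that may be technical in part. That spread was taken within the 8 groups of all 22 arrays. The other groups were Upk2-CreERT2 mice without a mutant allele and Trp53 heterozygotes, both with BBN, and normal urothelium without BBN.

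The protein p53 binds DNA at stress-response genes and switches on arrest, repair and death programmes. The arginine lost in R270H touches DNA directly, and its change to histidine leaves the fold largely intact, whereas the arginine lost in R172H helps to hold the DNA-binding domain together, and its change to histidine disturbs the fold. Mutants of the unfolding kind are known to depend on chaperones. The comparison thus sets a contact mutant against a structural mutant in the same driver line.

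Levels are given as the log2 signal of a gene's probe minus the 75th percentile of its array, so 0 is a fairly bright probe and a difference of 1 is a change of 2-fold. Of the spots, 50.1%, 56.8% and 47.7% were well above background on R270H arrays 1, 2 and 3, against 42.4%, 43.0%, 62.9% and 62.5% on R172H arrays 1 to 4. R172H arrays 3 and 4 therefore reached lower levels (down to -5.71 and -5.81) before a spot was lost in background than R172H arrays 1 and 2 (-2.69 and -2.75). Per the file headers, R270H arrays 1 and 2 were on slide 1, R270H array 3 and R172H arrays 1 and 2 on slide 2, and R172H arrays 3 and 4 on slide 3, and slide 3 was read on another scanner. Comparisons within the scanner of slides 1 and 2 (3 against 2 arrays) are given beside the results. The sex genes went against the labels on all 4 R172H arrays: Xist was above background on arrays 1 and 3, labelled male, and Y-linked genes were above background on arrays 2 and 4, labelled female, while the 3 R270H arrays fitted their labels. In the Upk2-CreERT2 pair, R172H array 1 (labelled male) read Xist and R172H array 2 (labelled female) Y-linked genes above background. Whether arrays or labels were exchanged cannot be told from these data. With a covariate for the sex label, or for the level of Xist relative to Y-linked genes, the number of genes called stayed at 0.

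None of the 17404 genes tested passed an adjusted p of 0.05 in R270H against R172H bladders, in either direction (0% of genes; limma with Benjamini-Hochberg adjustment, smallest adjusted p = 0.355). At an unadjusted limma p under 0.05 there were 1107 genes (6.36%), 599 with a higher mean in R270H (3.44%) and 508 with a lower one (2.92%). All 3 R270H arrays lay above all 4 R172H arrays at 271 genes (1.56%) and below them at 296 genes (1.7%). With 3 arrays against 4, an exact two-sided permutation test of 1 gene could not have gone below p = 0.0571. Means were higher in R270H at 52.6% of genes. The interval of a gene's difference reached 0.87 to either side at the median gene, and it lay wholly between -1 and 1 at 6399 genes (36.8%). In simulated data of this design, 4.5% of planted changes of 1 on the log2 scale were recovered, 50% of changes of 2 and 94% of changes of 4.

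Correlations between arrays of one allele overlapped those between arrays of different alleles. Pearson correlations over all genes tested were 0.899 to 0.926 among the 3 R270H arrays and 0.898 to 0.954 among the 4 R172H arrays, against 0.898 to 0.953 between R270H and R172H arrays. The first principal component (31.4% of the variance) set R172H arrays 3 and 4 apart from the other 5 arrays, the second (23.1%) set R270H array 2 apart, and the third (18.2%) R270H array 1. R270H array 1 lay above all 4 R172H arrays at 28.5% of genes, array 2 at 26.3% and array 3 at 18.0%. Array 1 lay below all 4 at 20.8% of genes, array 2 at 31.0% and array 3 at 15.1%.

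The mutated gene itself did not separate the alleles. Trp53 read -1.46, -0.44 and -0.48 in R270H bladders, against 1.21, -1.31, -0.60 and -0.61 in R172H bladders. Mutant and normal transcripts were not told apart here. The groups overlapped, since R172H array 1 was high and R270H array 1 low (difference -0.47 ± 0.63 (SE), limma adjusted p = 0.963). Without R172H array 1 the difference was 0.05. In the Krt5-CreERT2 bladders without a mutant allele Trp53 read -0.09 and 0.80.

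Genes that p53 switches on did not separate the alleles by any test. Of 35 tested targets, 0 passed, 0 had an unadjusted p under 0.05 in either direction, 20 had a higher mean in R270H, and the median difference was 0.05, beside 0.03 over all genes. Intervals lay within -1 to 1 at 12 of the 35, and at the others a difference of 2-fold lay inside the interval. Cdkn1a, the p21 inhibitor of cyclin-dependent kinases, read 1.14, 3.38 and 2.16 in R270H bladders, against 1.85, 2.14, 0.27 and 1.05 in R172H bladders. Its groups overlapped (difference 0.90 ± 0.54 (SE), limma adjusted p = 0.862). Mdm2, the ubiquitin ligase that removes p53, read 3.49, 2.79 and 3.36 in R270H against 3.14, 2.82, 2.88 and 3.13 in R172H bladders, a difference of 0.22 with an interval of -0.31 to 0.75. Sesn1, a stress-induced inhibitor of growth signalling, was the target of smallest p, at 1.36, 1.41 and 1.80 in R270H, against 1.14, 0.88, 0.96 and 1.19 in R172H (limma adjusted p = 0.841). Its 3 R270H arrays lay above all 4 R172H arrays, and the Krt5-CreERT2 bladders read 1.69 and 1.77.

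Among 22 regulators and relatives of p53, 0 passed and the median was -0.09. Trp63, the p53 relative that marks basal cells, read 3.26, 1.29 and 3.37 in R270H, against 3.51, 3.90, 3.71 and 3.83 in R172H bladders. All R270H arrays lay below all R172H arrays, with array 2 far below the others, and the difference of -1.09 (limma adjusted p = 0.653) was -0.42 without R270H array 2. A second probe of Trp63 gave -0.25. Cdkn2b, an inhibitor of Cdk4 and Cdk6, read 3.08, 2.13 and 3.79 in R270H against 3.96, 3.82, 2.87 and 3.79 in R172H, which overlapped.

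Chaperones of unfolded protein, which hold structural p53 mutants, had a median difference of 0.08 over 25 genes, with 16 of 25 means higher in R270H and 0 passing. Hspa1b, an inducible Hsp70, had the smallest p of the list, at 3.63, 3.34 and 3.37 in R270H against 4.59, 4.55, 4.14 and 3.32 in R172H bladders. R172H arrays 1 to 3 lay above every R270H array and R172H array 4 below them all (difference -0.70 ± 0.31 (SE), limma adjusted p = 0.756). Bag3, an Hsp70 co-chaperone, read 3.82, 3.26 and 4.30 in R270H against 4.58, 4.07, 4.11 and 4.42 in R172H. Next by p were Hspb8 and Cryab, whose means were higher in R270H (differences 0.71 and 1.215, limma adjusted p = 0.877 and 0.887). Of the genes for zinc binding and transport (zinc holds the p53 DNA-binding domain in shape), 5 of 15 means were higher in R270H and the median was -0.15. The medians were -0.22 for 20 genes of mevalonate and cholesterol synthesis, -0.01 for 18 genes of nucleotide synthesis and 0.01 for 24 proteasome subunits, with 0 genes passing in each. These are groups that mutant p53 has been linked to in other systems.

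The 12 genes of smallest p on either side, among those above background on every array of at least 1 allele and with predicted genes left out, are named although none passed. Wfikkn2, a secreted protein that binds myostatin and its relatives, read -2.30, -1.74 and -1.24 in R270H, against -4.83, -4.84, -5.53 and -6.38 in R172H bladders. All 3 R270H arrays were above background and 1 of the 4 R172H arrays was, and the difference was 3.63 ± 0.67 (SE), with a limma adjusted p of 0.355. The Krt5-CreERT2 bladders read -0.98 and -4.97, 1 near each group. Klhl32, a kelch-like protein, read -1.39, -2.19 and -1.67 in R270H against -4.97, -5.02, -3.55 and -3.62 in R172H bladders (difference 2.54 ± 0.47 (SE), limma adjusted p = 0.355). Its groups did not overlap, 2 of the 4 R172H arrays were above background, and a second probe gave 0.94. Both genes passed within the scanner of slides 1 and 2 (limma adjusted p = 0.000738 for Klhl32 and 0.0259 for Wfikkn2), but 0 of the 2 R172H arrays there read either gene above background, so the size of the difference was not measured. Both passed with slide as a block as well. With dim values set to 1 common floor, a setting chosen after seeing the data, Klhl32 differed by 0.945 and Wfikkn2 by 0.93, and with normexp background correction by 1.12 and 1.37; neither passed there.

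The other genes with higher means in R270H were mostly dim. Gpr20 (an orphan receptor), Nrg2 (a ligand of the ErbB receptors), Adh6a (an alcohol dehydrogenase), Foxo6 (a forkhead factor), Tmem25, Pwwp3b, Fam181b and Gnao1 (a G protein subunit of neurons) differed by 1.89 to 3.42, and 1 to 3 of the 4 R172H arrays read each above background. These sizes depended on background: with the common floor Gpr20 differed by 0.21, Fam181b by 0.33 and Nrg2 by 0.51. Gnao1 alone of these overlapped between groups, at 1.27, 0.33 and -2.35 in R270H, against -4.90, -2.32, -2.94 and -4.52 in R172H. Tppp3, a tubulin-binding protein, and Ccdc88c, a partner of Dishevelled in Wnt signalling, were above background on all 7 arrays. Tppp3 read 1.90, 2.44 and 0.83 in R270H against 0.13, 0.08, 0.26 and -0.43 in R172H (difference 1.71 ± 0.40 (SE), limma adjusted p = 0.551). Ccdc88c read 2.66, 1.77 and 1.35 in R270H against 0.62, 0.49, 0.24 and -0.28 in R172H, a difference of 1.66, while the lowest of its 4 probes gave 0.19.

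Genes with lower means in R270H were brighter, and 3 of the 12 were neighbours of one family. Cyp2j6, Cyp2j8 and Cyp2j13 are cytochrome P450 genes of the family whose members turn arachidonic acid into epoxides, and they lie in one cluster on chromosome 4. Cyp2j8 read -0.53, -0.40 and -0.86 in R270H, against 0.84, 0.29, 0.38 and 0.47 in R172H bladders (difference -1.09 ± 0.22 (SE), limma adjusted p = 0.355). Cyp2j6 read -1.38, -1.03 and -1.34 in R270H against 0.38, -0.42, -0.27 and 0.15 in R172H (difference -1.21 ± 0.28 (SE), limma adjusted p = 0.551). Cyp2j13 read -2.64, -2.77 and -3.21 in R270H against -1.17, -1.76, -1.76 and -1.70 in R172H (difference -1.27 ± 0.25 (SE), limma adjusted p = 0.355). At each of the 3, every R270H array lay below every R172H array, and the Krt5-CreERT2 bladders lay between the groups at Cyp2j8 (-0.21 and 0.27) and above every R270H array at Cyp2j6 (-0.76 and -0.13) and Cyp2j13 (-2.20 and -1.79). Cyp2j9, the other family member measured, differed by -0.79 at an unadjusted limma p under 0.05. Within the scanner of slides 1 and 2 the differences were -1.23 at Cyp2j6, -1.16 at Cyp2j8 and -1.41 at Cyp2j13, and with normexp background correction Cyp2j13 differed by -0.58. A second probe gave -0.61 at Cyp2j13 and -1.86 at Cyp2j6. On R270H array 3, Cyp2j13 was not above background. The transcripts are alike, so a probe for one may also bind another, and the 3 genes are not independent.

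The 60 bases just before the annotated start of each gene are shown so that the promoters of these neighbours can be set side by side (RefSeq, GRCm38.p6, minus strand).
Cyp2j13, chr4:96077548-96077607: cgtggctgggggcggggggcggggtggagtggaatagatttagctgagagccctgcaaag
Cyp2j8, chr4:96507398-96507457: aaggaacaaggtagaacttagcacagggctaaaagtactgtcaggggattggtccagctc
Cyp2j6, chr4:96553652-96553711: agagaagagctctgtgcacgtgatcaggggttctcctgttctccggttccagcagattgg
The longest run of bases shared within the 250 bases before the start was 10 for Cyp2j13 and Cyp2j6, 9 for Cyp2j6 and Cyp2j8, and 7 for Cyp2j13 and Cyp2j8. The run that unrelated promoters share was not measured, so no likeness is read from these lengths.

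**Figure D1:**
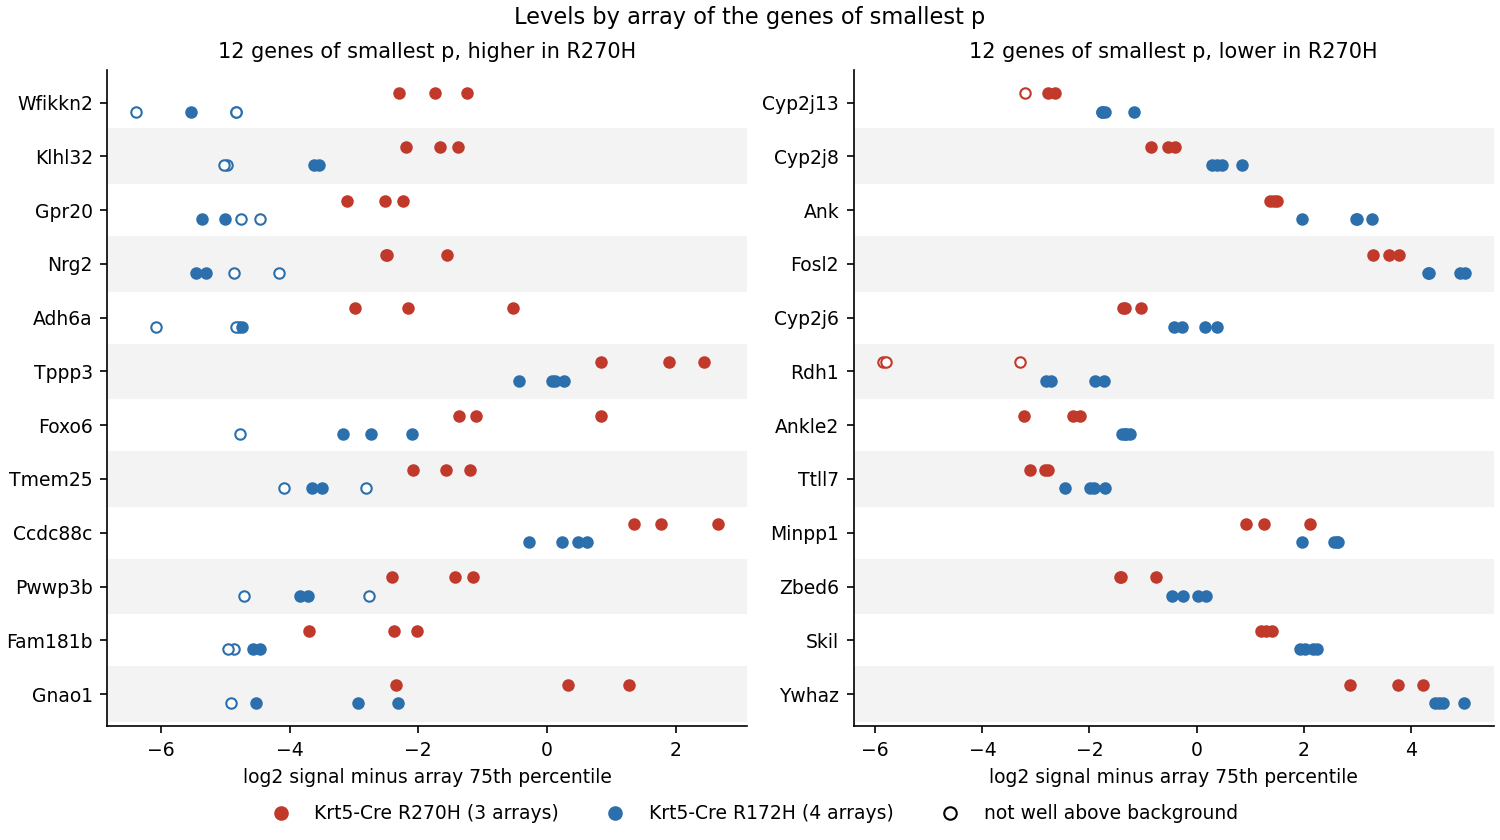
Levels of the 12 genes of smallest unadjusted p with a higher mean in R270H (left) and the 12 with a lower mean (right), among genes above background on every array of at least 1 allele and with predicted genes left out, as log2 signal minus the array's 75th percentile on the horizontal axis. Each point is an array, red for Krt5-Cre R270H (3) and blue for Krt5-Cre R172H (4), open where the spot was not well above background. The groups overlap at Gnao1 and Minpp1, and none of the 24 genes passed.

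Among the remaining genes with lower means in R270H, Ank, which exports pyrophosphate, read 1.37, 1.46 and 1.51 in R270H, against 1.98, 2.97, 2.998 and 3.28 in R172H bladders. The 3 R270H arrays lay close together, below every R172H array and below the Krt5-CreERT2 bladders at 2.39 and 2.59 (difference -1.36 ± 0.29 (SE), limma adjusted p = 0.355). Skil, which encodes the SMAD repressor SnoN, read 1.30, 1.20 and 1.41 in R270H against 2.25, 2.18, 2.02 and 1.93 in R172H (difference -0.79 ± 0.21 (SE), limma adjusted p = 0.646). Fosl2, an AP-1 subunit, read 3.59, 3.29 and 3.78 in R270H against 4.33, 4.92, 5.01 and 4.34 in R172H, a difference of -1.09, while its other probe gave -0.06. Rdh1, a retinol dehydrogenase, was above background on all 4 R172H arrays, at -1.73, -1.91, -2.80 and -2.73, and on 0 of the 3 R270H arrays. It differed by -2.70 (limma adjusted p = 0.586), and the smallest difference under an alternative was -0.44. Its R172H mean was 2.75-fold the lowest level that counted as above background on the R270H arrays. Ankle2 (nuclear envelope reassembly), Ttll7 (a tubulin glutamylase), Zbed6 (a transcriptional repressor) and Ywhaz (14-3-3 zeta) differed by -0.89 to -1.25 with no overlap, and Minpp1 (an inositol phosphate phosphatase) by -1.01 with overlap. Second probes gave -0.26 for Ankle2 and -0.25 for Ywhaz.

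**Figure D2:**
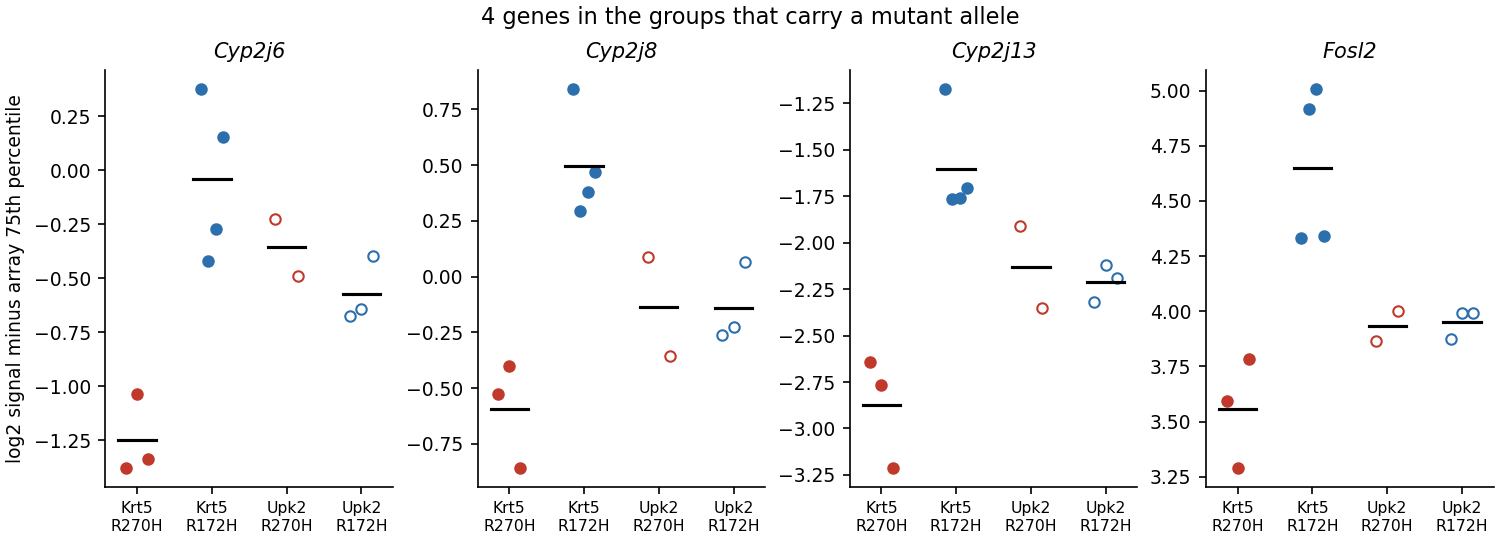
Log2 signal minus the array's 75th percentile for Cyp2j6, Cyp2j8, Cyp2j13 and Fosl2 in the Krt5-Cre line (3 R270H and 4 R172H arrays) and the Upk2-Cre line (2 R270H and 3 R172H arrays), red for R270H and blue for R172H, with filled points for the Krt5 driver. Bars are group means. All Krt5-Cre R270H points lie below all Krt5-Cre R172H points, and the Upk2-Cre groups differ by 0.22, 0.01, 0.08 and -0.02. The genes were picked for a small p in the Krt5-Cre comparison, so their separation there follows from the choice. None passed the test between drivers, and allele and slide cannot be told apart in the Upk2-Cre pair.

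Large differences leaned to the R270H side, but their split moved with the processing. Means were at least 1 higher in R270H at 1474 genes (8.47%) and at least 1 lower at 401 (2.3%). With all dim values set to one floor (log2 -2.69) the numbers were 548 and 166, with scanner as a block 1236 and 934, and within the scanner of slides 1 and 2 they were 1276 and 1520.

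Smooth muscle genes were the list with the highest median difference, 2.11 over 14 genes, and 2 of the 3 R270H bladders carried it. All 14 means were higher in R270H, 11 of them at an unadjusted limma p under 0.05, and 0 passed the adjustment. Over all genes, 52.6% of means were higher in R270H, and 3.44% of genes were higher at that p. Myl9, a light chain of smooth muscle myosin, read 7.91, 8.05 and 5.29 in R270H, against 3.65, 6.13, 5.76 and 4.23 in R172H bladders (difference 2.14 ± 0.65 (SE), limma adjusted p = 0.651). Myocd, the coactivator that switches on the smooth muscle programme, read -0.57, 0.10 and -2.81 in R270H against -4.69, -3.46, -1.94 and -3.43 in R172H. Mylk, the myosin light chain kinase, read 5.20, 5.77 and 2.12 in R270H against -0.01, 2.98, 2.89 and 1.21 in R172H. R270H arrays 1 and 2 were high and array 3 lay inside the range of the R172H arrays at each of the 3 genes. Over the list, R270H array 2 lay above all 4 R172H arrays at 14 of 14 genes and array 1 at 12 of 14, while array 3 did so at 0. The shares over all genes were 26.3% for array 2, 28.5% for array 1 and 18.0% for array 3. Myh11, Tagln, Cnn1, Synpo2, Lmod1, Acta2, Smtn and Des, contractile and cytoskeletal genes of the muscle wall, differed by 1.17 to 2.71, and Kcnmb1, Tpm2 and Actg2 by 0.91 to 1.55.

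The bladders without a mutant allele were as high as R270H arrays 1 and 2 or between the groups. The list's median level was 4.43, 5.75 and 2.56 in R270H, 1.24, 3.06, 3.13 and 2.05 in R172H and 5.64 and 3.78 in Krt5-CreERT2 bladders. R270H arrays 1 and 2 were also the arrays of slide 1, and within slide 2 (1 against 2 arrays) the median difference was 0.42. It was 2.08 with slide as a block and 2.46 with scanner as a block. In RNA of a whole bladder, fewer muscle cells and less RNA per cell cannot be told apart. A CArG box, the site bound by the factor that Myocd assists, was searched for in the 250 bases before the start. Only its exact form was counted (CC, a run of A or T, then GG). Boxes with a mismatch or further from the start were not searched for. An exact box was found at 1 of 10 smooth muscle genes with a promoter sequence, beside 1.62% of 27025 genes. It was in Myl9, and is shown in capitals with its flanks because this gene had the smallest p of the list (RefSeq, GRCm38.p6, chr2:156775278-156775337, plus strand, 161 bases before the start).
Myl9: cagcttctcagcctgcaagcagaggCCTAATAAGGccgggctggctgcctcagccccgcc

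Nerve and Schwann cell genes stood beside them, with a median of 1.64 and 10 of 11 means higher in R270H. At an unadjusted limma p under 0.05, 6 were higher, beside 3.44% of all genes. Uchl1, a neuronal ubiquitin hydrolase, read 1.93, 1.72 and 0.98 in R270H, against -0.04, -0.01, 0.68 and 0.91 in R172H bladders. All R270H arrays lay above all R172H arrays, by little for array 3 (difference 1.16 ± 0.36 (SE), limma adjusted p = 0.651). Prph, the peripheral neurofilament protein, was above background on 2 R270H arrays and 0 R172H arrays (limma adjusted p = 0.651). Its R270H mean of -3.33, which includes array 3, not above background, was 1.88-fold the lowest above-background level averaged over the R172H arrays. That mean lay below this level on R172H arrays 1 and 2 (-2.69 and -2.75), so the fold rested on arrays 3 and 4. A second probe of Prph gave 0.82. The lowest Prph difference under an alternative was 0.21. S100b and Sox10 of Schwann cells read -1.43, -1.48 and -4.49 and -2.31, -2.03 and -4.51 in R270H bladders. In R172H bladders S100b ranged between -4.95 and -3.81 and Sox10 between -4.94 and -3.71, so R270H array 3 was not high at either. Most members were dim, and 4 of 11 were above background on all 7 arrays. The list median was 0.54 with the common floor, 0.84 with normexp background correction and -0.19 within slide 2, with 3 of 11 above 0.

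**Figure D3:**
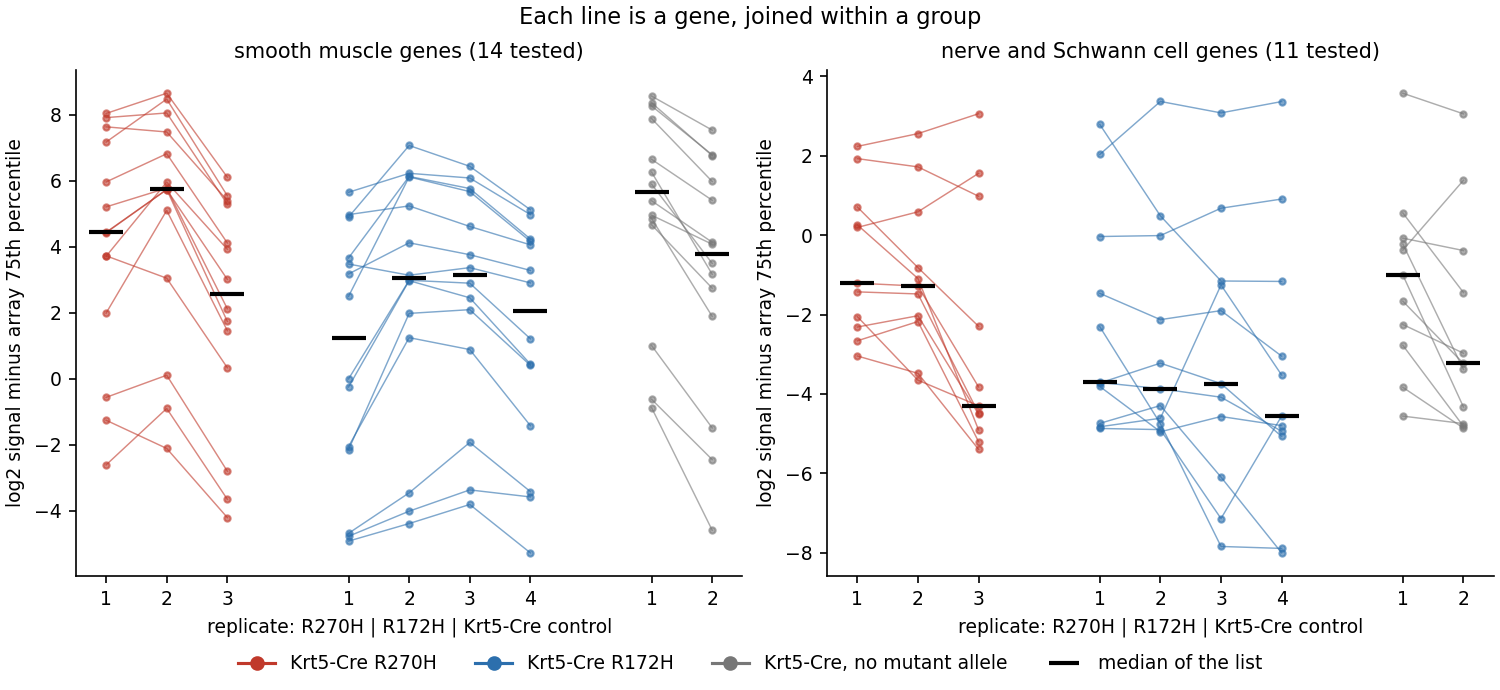
Log2 signal minus the array's 75th percentile of 14 smooth muscle genes (left) and 11 nerve and Schwann cell genes (right) on the arrays of Krt5-Cre R270H, Krt5-Cre R172H and Krt5-Cre without a mutant allele. Each line is a gene, joined within a group, and the black bars are list medians. R270H arrays 1 and 2 are high in both lists and array 3 is near the R172H arrays.

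Endothelial and fibroblast genes were highest on R270H array 2. Endothelial genes had 12 of 12 means higher in R270H and a median of 0.70. R270H array 2 lay above all R172H arrays at 12 of 12 genes, array 1 at 4 and array 3 at 2. In shares these were 100%, 33.3% and 16.7%, beside 26.3%, 28.5% and 18.0% of all genes. Flt1, a VEGF receptor, read 1.87, 2.26 and 1.31 in R270H against 0.87, 0.75, 0.94 and 1.21 in R172H (limma adjusted p = 0.821). Fibroblast genes had a median of 0.67 with 12 of 14 means higher. Without R270H array 2 the endothelial median was -0.05 and the fibroblast median 0.16. Adipocyte genes had a median of 1.33 with 7 of 8 means higher in R270H, but 2 of the 8 were above background on all 7 arrays. R270H array 1 lay above all R172H arrays at 6 of the 8, array 2 at 2 and array 3 at 0. The adipocyte median was 0.14 without R172H array 4 and -1.23 within slide 2, with 1 of 8 above 0. Skeletal muscle genes (median 0.63, 7 of 9 means higher) were highest on R172H array 3, where Myh4, a fast myosin, read 3.28, above -6.05, -2.13 and -2.38 on the R270H arrays and -4.91, -4.96 and -8.03 on the other R172H arrays.

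Lymphocyte genes had a median of 1.06 with 20 of 21 means higher in R270H. At an unadjusted limma p under 0.05, 1 was higher, beside 3.44% of all genes. That gene was Ms4a1, the B cell antigen CD20, which read -3.78, -2.39 and 0.57 in R270H against -4.79, -4.80, -7.63 and -8.07 in R172H bladders. It was above background on 2 R270H arrays and 0 R172H arrays (limma adjusted p = 0.355). The R270H mean was 5.19-fold the lowest level that counted as above background on the R172H arrays. That mean includes array 1, which was not above background. The lowest difference under an alternative was 1.19. Ms4a1 passed with slide as a block (limma adjusted p = 0.00248), but not with scanner as a block or within the scanner of slides 1 and 2 (limma adjusted p = 0.318). Within slide 2 (1 R270H against 2 R172H arrays) the Ms4a1 difference was 5.37. Cd4, of helper T cells, had a lower mean in R270H (difference -0.80, limma adjusted p = 0.802). R270H array 1 lay above all R172H arrays at 12 of the 21 genes, array 2 at 4 and array 3 at 2, and 4 of the 21 were above background on all 7 arrays. The list median was 0.43 without R270H array 1, 0.23 within the scanner of slides 1 and 2, and -1.19 within slide 2. Macrophage genes had a median of 0.30 and neutrophil and acute inflammation genes -0.18. Cxcl3, a neutrophil attractant, read -2.84, -2.70 and -1.73 in R270H against 1.43, 1.40, -1.90 and -1.65 in R172H bladders, high on the 2 R172H arrays of slide 2.

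Interferon response genes showed how far 1 bladder could carry a mean. Their median was 0.32 with 19 of 23 means higher in R270H. R270H array 1 lay above all 4 R172H arrays at 23 of 23 genes, array 2 at 3 and array 3 at 0. The shares over all genes were 28.5%, 26.3% and 18.0%. On R270H array 3, 8 genes lay below all 4 R172H arrays. Those 8 genes were 34.8% of the list, beside 15.1% of all genes for array 3. Cxcl10, an interferon-induced chemokine, read 4.91, 0.90 and -0.66 in R270H, against -1.43, 2.37, 0.90 and -0.64 in R172H bladders. Rsad2, an antiviral enzyme, read 2.75, 0.44 and -2.24 in R270H against -3.09, -0.28, -1.28 and 0.07 in R172H. Without R270H array 1 the list median was -0.59. Antigen presentation genes had a median of 0.31, and 0 members passed.

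Genes of the cell cycle split the R270H bladders as well. The median over 32 genes was 0.34 with 29 means higher in R270H, 0 at an unadjusted limma p under 0.05. R270H array 1 lay above all 4 R172H arrays at 29 of 32 genes (90.6%, beside 28.5% of all genes). R270H array 2 lay below all 4 at 21 of 32 (65.6%, beside 31.0% of all genes). Cdk1, the mitotic kinase, read 1.65, -1.02 and 0.91 in R270H against 0.20, -0.74, -0.79 and 0.24 in R172H bladders. Mki67, a marker of dividing cells, read 4.49, 2.22 and 3.72 in R270H against 4.14, 2.94, 3.11 and 3.47 in R172H. The list median was -0.17 without R270H array 1 and 0.94 without R270H array 2. DNA repair genes followed the same arrays, with a median of 0.26.

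**Figure D4:**
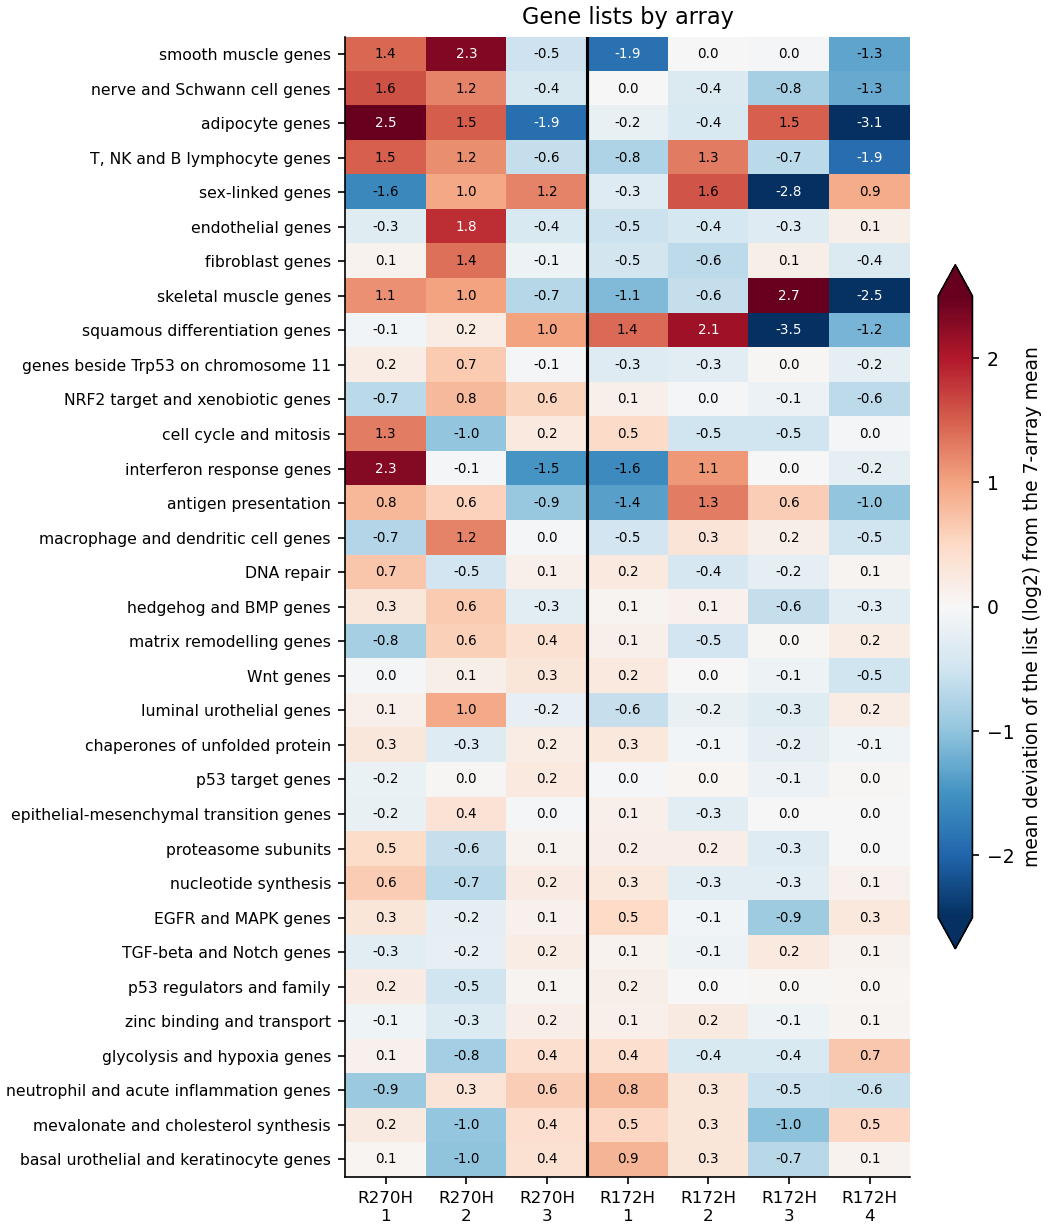
Mean log2 deviation of each of 33 gene lists from its mean over the 7 arrays, with R270H arrays 1 to 3 left of the line and R172H arrays 1 to 4 right of it, and lists ordered by median difference. Red is above and blue below the 7-array mean. R270H array 1 is high in interferon genes (2.30) and cell cycle genes (1.28), R270H array 2 in smooth muscle (2.31) and endothelial genes (1.84), and R172H array 3 is low in squamous genes (-3.48).

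In the epithelium, basal genes tended to lower means in R270H, and 3 uroplakins of the luminal list had higher ones. Krt5 and Krt14, the basal keratins, were among the brightest genes. Krt5 read 8.56, 8.24 and 8.37 in R270H, against 9.71, 8.73, 8.08 and 8.04 in R172H bladders, and the 2 R172H arrays of slide 2 were high (difference -0.25, limma adjusted p = 0.972). Krt14 read 8.66, 8.07 and 8.66 in R270H against 10.2, 10.3, 8.44 and 8.32 in R172H (difference -0.85, limma adjusted p = 0.902). Of 23 basal genes, 18 means were lower in R270H and the median was -0.39, with 0 genes passing. At an unadjusted limma p under 0.05, 3 were lower, beside 2.92% of all genes. Trp63 and Cdh3 (P-cadherin, difference -0.98) were among the 3. R270H array 2 lay below all R172H arrays at 13 of the 23 (56.5%), array 1 at 4 (17.4%) and array 3 at 2 (8.7%). Over all genes these shares were 31.0%, 20.8% and 15.1%. The list median was -0.13 without array 2. That array was also the highest in smooth muscle and endothelial genes, whose part in the basal values was not tested. Cdh1, E-cadherin, read 3.25, 2.56 and 3.46 in R270H against 3.93, 5.04, 3.17 and 3.96 in R172H (difference -0.94, limma adjusted p = 0.659).

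Of 25 luminal genes, 3 had an unadjusted limma p under 0.05, all higher in R270H and all uroplakins, the plaque proteins of umbrella cells. Over all genes, 3.44% were higher at that p. Of the list's means, 16 were higher and 9 lower in R270H. The list median was 0.14, and it was 0.001 without R172H array 3 and -0.06 within slide 2. Upk1b read 2.73, 3.85 and 1.46 in R270H, against -2.85, 0.61, 0.50 and 2.56 in R172H bladders (difference 2.47 ± 0.91 (SE), limma adjusted p = 0.662). Upk2 read 0.12, 3.44 and -0.77 in R270H against -3.53, -1.35, -0.52 and 0.03 in R172H (difference 2.27 ± 0.84 (SE), limma adjusted p = 0.662). Upk1a read 3.49, 4.38 and 1.47 in R270H against -0.62, 0.55, 1.38 and 2.54 in R172H. R270H array 2 was the highest and R172H array 1 the lowest at all 3, and the groups overlapped at R270H array 3 and R172H array 4. The Krt5-CreERT2 bladders read 4.21 and 2.65 at Upk1b.

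Squamous differentiation genes differed more among the R172H bladders than between the alleles. Their mean deviation was 1.41 and 2.12 on R172H arrays 1 and 2, but -3.48 and -1.17 on arrays 3 and 4, with the R270H arrays between, at -0.07, 0.18 and 1.01. Cnfn, a protein of the cornified envelope, read 5.56, 5.85 and 5.89 in R270H against 5.99, 6.64, -3.23 and 3.57 in R172H bladders. Asprv1, a protease of the outer epidermis, read 3.73, 2.54 and 1.42 in R270H against 2.44, 3.30, -3.73 and -1.06 in R172H. The median difference of the list was 0.59 over all 7 arrays, with 23 of 32 means higher in R270H, and -1.39 within the scanner of slides 1 and 2, with 1 of 32 higher. Its direction therefore rested on R172H arrays 3 and 4, and without R172H array 3 alone it was -0.34.

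Signalling lists held single genes of small p and no common direction. Wnt5a, a non-canonical Wnt ligand, read 1.78, 1.42 and 1.52 in R270H against 3.45, 1.65, 2.80 and 2.78 in R172H (difference -1.09 ± 0.38 (SE), limma adjusted p = 0.651), while Nkd1, a Wnt-induced inhibitor, read 0.52, 0.38 and -0.66 in R270H against -3.02, -0.74, -0.99 and -2.17 in R172H (difference 1.81, limma adjusted p = 0.693). The Wnt list had 14 of 22 means higher in R270H and a median of 0.20. Jag1, a Notch ligand, read 2.33, 0.40 and 2.48 in R270H against 3.18, 3.18, 2.52 and 2.86 in R172H. With Skil it was 1 of the 2 genes of the TGF-beta and Notch list at an unadjusted limma p under 0.05 (list median -0.09 over 17 genes). Both were lower in R270H, beside 2.92% of all genes lower at that p. Dusp6 and Etv5, which are induced by MAPK signalling, read 6.38, 3.94 and 4.33 and 3.81, 1.26 and 2.31 in R270H bladders. In R172H bladders Dusp6 ranged between 3.42 and 4.23 and Etv5 between 0.87 and 1.93, so R270H array 1 was the highest at both. Bmp2, a BMP ligand, differed by 1.30. Hhip, an inhibitor of hedgehog signalling, was above background on 2 R270H arrays and 0 R172H arrays (limma adjusted p = 0.785). Its R270H mean of -3.555, which includes array 3, not above background, was 1.61-fold the lowest above-background level averaged over the R172H arrays. The mean lay below this level on R172H arrays 1 and 2 (-2.69 and -2.75), so the fold rested on arrays 3 and 4. The medians were 0.25 for 14 hedgehog and BMP genes, -0.04 for 23 EGFR and MAPK genes, 0.22 for 25 matrix remodelling genes, 0.02 for 19 epithelial-mesenchymal transition genes, -0.16 for 18 glycolysis and hypoxia genes and 0.39 for 19 NRF2 target and xenobiotic genes, with 0 genes passing in each.

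Genes beside Trp53 on chromosome 11 were read because they lie next to the targeted locus. Of 24, 20 means were higher in R270H (52.6% of all genes were), with a median of 0.40. At an unadjusted limma p under 0.05, 3 were higher, beside 3.44% of all genes. R270H array 1 lay above all 4 R172H arrays at 41.7% of the 24, array 2 at 45.8% and array 3 at 12.5%. Over all genes these shares were 28.5%, 26.3% and 18.0%. Efnb3, an ephrin ligand, was dim at -3.22, -2.63 and -3.97 in R270H, against -4.33, -4.84, -4.89 and -4.89 in R172H bladders. Sox15, a transcription factor, read 0.83, 1.49 and 0.25 in R270H against 0.27, 0.10, 0.02 and -0.09 in R172H, and Fgf11 read -0.78, -0.97 and -1.70 in R270H against -1.90, -1.99, -1.50 and -2.57 in R172H. In the Upk2-CreERT2 pair the list median was -0.04 with 11 of 24 means higher in R270H.

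**Figure D5:**
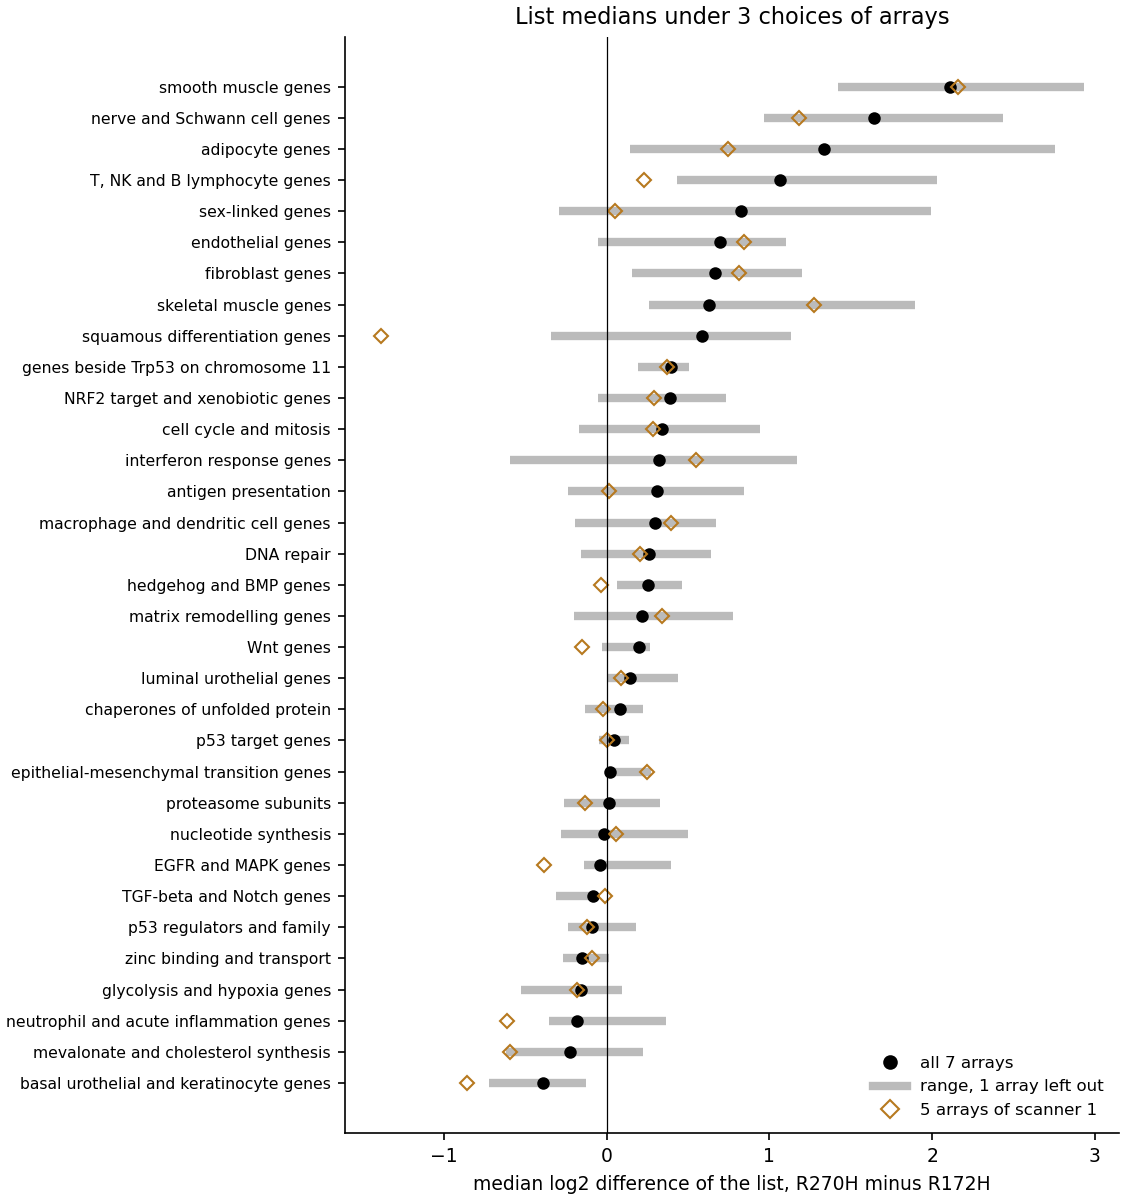
Median log2 difference, R270H minus R172H, of each of 33 gene lists over all 7 arrays (black points), over the 5 arrays of the scanner of slides 1 and 2 (open diamonds) and the range when 1 array is left out (grey bars). Lists are ordered by the black points. Smooth muscle genes stay above 0 in each (2.11, 2.16 and 1.42 to 2.93), and squamous genes change sign (0.59 and -1.39).

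The same alleles were compared under the luminal driver to ask whether the allele difference depended on the driver. No gene passed a test of the difference between the drivers (0 of 17404, 0% of genes, limma), and 371 had an unadjusted limma p under 0.05 (2.13%). All Upk2-CreERT2 R270H arrays were on slide 2 and all Upk2-CreERT2 R172H arrays on slide 3 and the other scanner, so allele and slide cannot be told apart in that pair. Among genes above background on every Krt5-CreERT2 array of at least 1 allele, predicted genes left out, the 5 of smallest p were Gne (sialic acid synthesis), Cxcl17 (a mucosal chemokine), Rwdd3 (a SUMOylation enhancer), Amdhd2 (amino sugar breakdown) and Cyp2j13. Gne differed by 0.92 under Krt5-CreERT2, where its groups did not overlap, and by -0.54 under Upk2-CreERT2. Rwdd3 read -2.73, -2.80 and -2.73 in R270H against -1.67, -1.49, -2.08 and -1.66 in R172H bladders under Krt5-CreERT2, and the Upk2-CreERT2 difference was 0.62. Cxcl17 was above background on 3 R270H arrays and 1 of the 4 R172H arrays under Krt5-CreERT2 and on neither Upk2-CreERT2 R270H array, so the size of its difference was not measured under either driver. Amdhd2 differed by 0.04 under Krt5-CreERT2 and by -1.23 under Upk2-CreERT2. Smooth muscle genes had a median of 2.16 in the Upk2-CreERT2 pair, beside 2.11 in the Krt5-CreERT2 pair, and nerve genes 1.98 beside 1.64. Other lists turned their direction. Cell cycle genes had -0.28 beside 0.34, interferon response genes -0.26 beside 0.32 and DNA repair genes -0.36 beside 0.26. Without R270H array 1 of the Krt5-CreERT2 pair, the medians of that pair were -0.17, -0.59 and -0.16, so their direction there rested on 1 array.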

How the data were processed

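Per the file headers, Feature Extraction 11.0.1.1 (Agilent) gave the spot intensities on a linear scale (version 9.1 per the submitters' processing notes, which also name limma). The authors' deposited normalized table holds log2 values with 1 common maximum (18.8), and was used as an alternative. Here each array's processed signal was taken as log2 minus its 75th percentile over unflagged non-control spots. Spots flagged as outliers were left out and spots of a probe averaged. A single symbol was found for 32994 of 56605 probes, none for 23611, and 0 had several. The brightest probe stood for each of 22911 genes, and genes well above background on at least 2 of 22 arrays were tested (17404, after 17 were dropped for a flagged value). limma 3.58.1 (R 4.3.3) fitted 8 group means to all 22 arrays. The adjusted p threshold was 0.05. Tables and plots used pandas 2.3.3, matplotlib 3.10.9 and numpy 2.4.6 under Python 3.11.15. Simulated data tested the fit, with 200 changed genes of 17404. The number of arrays limits the precision.

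Members and the 33 lists (653 genes, 636 tested) were chosen with earlier results of these data known. Named by rule were Trp53, Cdkn1a, Mdm2, Krt5, Krt14 and Upk2, the 12 genes of smallest p in each direction that were above background throughout 1 group (predicted genes skipped), up to 4 members of smallest p per list, and 5 genes for the driver difference (same exclusions). A gene that the rule picked is not reported here. Other members are named as examples chosen after their values were seen. Folds against the lowest level set 1 group's mean against the other's lowest level well above background, array by array. An array's own reading was used where it was higher. These folds are not minima, since a spot can lie above that level without being called above background. Alternatives were normexp background correction (offset 50), quantile normalization, the deposited table, other filters, the mean over probes, the 7 arrays alone, blocks for slide, scanner and replicate, sex covariates, array weights, comparisons within a slide or scanner and each array left out.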

Additional observations from a re-analysis of the deposited data

Results flagged for a closer look

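Among the 4 R172H arrays, 1 array stood far from the other 3 at 8 of 105 named genes and at 1 of 33 lists, judged by its gap relative to the range of the group. Chance alone flags about 1 in 20 groups of this size. R172H array 1 was high at Cyp2j13 (-1.17, others -1.76 to -1.70), Slc29a1, a nucleoside transporter (2.21, others 0.75 to 0.85), Efnb3 (-4.33, others -4.89 to -4.84, with R172H arrays 1 and 2 not above background) and Gne (0.32, others -0.31 to -0.25). R172H array 2 was low at Minpp1 (1.96, others 2.57 to 2.64). R172H array 3 was low at Adh6a (-6.07, others -4.83 to -4.74, most of them not above background) and Cdkn2b (2.87, others 3.79 to 3.96), and R172H array 4 at Cryab, a small heat shock protein (0.71, others 1.28 to 1.39). Genes of mevalonate and cholesterol synthesis deviated by -1.02 on R172H array 3, against 0.31 to 0.52 on the other 3. These values are given with no explanation.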

How the results depend on the processing

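The number of genes called in the Krt5-CreERT2 comparison was 0 under every alternative run other than those named next, with 562 to 1205 genes at an unadjusted limma p under 0.05 where all arrays were kept. It was 3 with slide as a block (Klhl32, Ms4a1 and Wfikkn2), 1 with scanner as a block (Klhl32), 31 within slide 2 and 9 within the scanner of slides 1 and 2. Slide 2 held 1 R270H against 2 R172H arrays, and the lone sample is assumed to vary like the other groups. Leaving out 1 array gave 0 to 13 genes, and the 13 (11 higher, 2 lower in R270H) came without R270H array 3. The driver difference gave 2 genes with slide as a block (Krt90 and Ms4a1), 1 with the common floor (Kcne4), which was chosen after seeing the data, and 0 to 1 with 1 array left out (Olfr78, without Upk2-CreERT2 R270H array 1). The cause of these shifts was not tested. The replicate numbers did not pair the samples, since deviations of same-numbered arrays correlated at -0.05, 0.10 and -0.24, and with the replicate block 0 genes were called, 974 at an unadjusted limma p under 0.05. Of 2484 values of named genes under alternatives, 29 turned their direction or came to 0, at 21 of 105 genes. Within slide 2 these were Nsdhl (0.058), Slc29a1 (-0.57), Asprv1 (-1.45), Brca2 (-0.45), Rsad2 (-0.55), Bst2 (-0.97), Cd68 (-0.034), Gfra3 (-0.35), S100b (-0.10), Cidec (-1.43), Myh2 (-1.57), Tnnt3 (-0.52), Cyp1a1 (-0.63) and Hhip (-0.66). Within the scanner of slides 1 and 2 it was Asprv1 (-0.31), with array weights Rsad2 (-0.20), Bst2 (-0.21) and Cidec (-0.16), and with the mean over probes Tgm3 (0.23) and Trem1 (0.18). Quantile normalization turned Krt5 (0.01), the deposited table Kdm5d (-0.029). The common floor left Cyp1a1 at 0.00, with no direction. With 1 array left out, Trp53 ranged over -0.79 to 0.049 and Krt5 reached 0.10 (without R172H array 1), Cd68 ranged over -0.17 to 0.87 and Hk2 over -1.52 to 0.11 (the turned value without R270H array 2), and Ddx3y over -0.29 to 1.99 and Kdm5d over -0.26 to 2.36 (without R172H array 3). Of 791 list medians under alternatives, 24 moved by more than 1 SD, and 4 of 33 lists kept their sign throughout (smooth muscle, fibroblast, skeletal muscle and genes beside Trp53). Dim probes are limited by background, which was lowest on R172H arrays 3 and 4.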

Other observations

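R270H array 3 was the R270H bladder nearest to the R172H bladders, with a correlation of 0.953 with R172H array 1, and both were on slide 2. Proteasome subunits divided the R270H bladders: array 1 lay above all 4 R172H arrays at 15 of 24 subunits and array 2 below them all at 16 of 24, while the median difference was 0.01. Nucleotide synthesis genes were alike in this, with array 1 above all R172H arrays at 12 of 18 genes and array 2 below them at 10 of 18. Over all genes, array 1 lay above all R172H arrays at 28.5% and array 2 below them at 31.0%. Aldh3a1, an aldehyde dehydrogenase chosen after its values were seen, read 2.80, 7.19 and 4.64 in R270H bladders, against 5.02, 3.56, 4.25 and 2.13 in R172H bladders.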
